A study of Drosophila melanogaster with 16 samples.

Results

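Odorant-binding proteins (OBPs) are small secreted proteins that carry hydrophobic odorants and pheromones through the fluid around chemosensory neurons. In flies they are made mainly by the support cells of olfactory and taste sensilla. Several members are also known from other tissues, among them the male reproductive tract, the fat body and glia. Family members are sorted by their cysteines into a classic group, a Minus-C group that has lost a conserved pair, and a Plus-C group with additional cysteines.

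The members are all Drosophila melanogaster genes whose current symbol starts with Obp and a digit, and the features of the array were assigned to them by accession. The RefSeq gene table (assembly Release 6) lists 51 such genes, and 47 of them were matched by 70 of the 45366 features on the array. The other 4, Obp50c, Obp57b, Obp57d and Obp85a, had no matched feature and were not analysed here. A single feature was found for 27 genes and several for 20 genes, and 26 of the 70 features were printed in 2 spots, the others in 1.

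RNA came from motor neurons of female flies in which the D42 driver, a Gal4 line that is also active in some other neurons, directs expression of GFP. Cells of the thoracic ganglion were dissociated, GFP-positive cells were sorted, and the amplified, Cy3-labeled material of 1 pool of 5 flies was hybridized to 1 single-color Agilent array. The 7-day-old group has 5 arrays, the 35-day-old group 5 and the 45-day-old group 6, and all flies shared driver, reporter and rearing, so that only age differs by label. Each pool is described as a biologically independent replicate.

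Signals are given as log2 of the background-adjusted intensity minus the 75th percentile of the array, so that 0 marks a feature as bright as the 75th percentile. A feature was called well above background where the scanner software flagged all its spots as such. The share of spots flagged in this way was 62.5% to 67.1% on the 7-day-old arrays, 61.1% to 63.8% on the 35-day-old arrays and 56.7% to 64.6% on the 45-day-old arrays. The lowest signal well above background lay between -8.89 and -7.22 on all arrays, and no spot was saturated. Arrays were hybridized on 2 slides with 2 rows each. All 7-day-old arrays lay in row 2 and all 35-day-old arrays in row 1, so 35 and 7 days cannot be told apart from the row, whereas 3 of the 6 45-day-old arrays lay in each row. In sorted pools, fewer cells of a type and less RNA per cell cannot be told apart.

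The tissue was checked on marker genes. Of the neuronal markers, 6 of 6 were well above background on all 16 arrays, as were 5 of 6 motor neuron transcription factors with a feature. The defining transporter gene VGlut had no matched feature. Genes of other cells were present too. Glial markers were well above background on all arrays for 7 of 8 genes, fat body markers for 5 of 8, muscle markers for 3 of 7 and hemocyte markers for 0 of 5. Of 7 markers of sensillum cells, 1 was well above background on all arrays. The sheath gene nompA, the regulator Poxn and the OBP gene lush were so on no array. Of 9 male accessory gland markers, 0 were well above background on all arrays and 5 on no array, including the sex peptide gene SP.

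Of the 47 OBP genes, 12 had a feature well above background on all 16 arrays, 25 on some arrays and 10 on no array. The share measured on every array was thus 25.5% of OBP genes, against 52.6% of all 12947 genes on the array. The 12 were Obp8a, Obp19b, Obp44a, Obp50e, Obp56a, Obp56d, Obp57a, Obp57c, Obp73a, Obp83ef, Obp99a and Obp99c. The 10 never above background were Obp19a, Obp46a, Obp47b, Obp50d, Obp56b, Obp56c, Obp56f, Obp56i, Obp83b and Obp84a. A single array carried between 17 and 24 OBP genes well above background. The counts ran from 17 to 23 on the 7-day-old arrays, from 17 to 24 on the 35-day-old arrays and from 20 to 24 on the 45-day-old arrays, and the ages overlapped.

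Counts are given by structural group. Of the 9 genes counted here as Minus-C, Obp83cd and Obp83ef among them, 5 were well above background on all arrays and 0 on no array. Obp83ef was among the 5. Of 27 classic genes with a feature, 6 were so on all arrays and 7 on none, and of 11 Plus-C genes, Obp50e alone was so on all arrays and 3 on none. Of 8 OBPs best known from the antenna, only Obp56d was measured on every array. The antennal genes Obp83b and Obp84a, and Obp19a, were above background on none. Obp83a, whose product lies in pheromone-sensing trichoid sensilla, was so on 4 arrays. Of 7 OBPs known as seminal fluid proteins, Obp8a alone was measured on all 16 arrays, and Obp56f and Obp56i on none.

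Genes that neighbour each other in the genome differed as well. In the run from Obp56a to Obp56f, with 6 genes, Obp56a and Obp56d were well above background on every array, Obp56e on 6 arrays, and Obp56b, Obp56c and Obp56f on none. In the group of Obp19a, Obp19b, Obp19c and Obp19d, Obp19b was so on all arrays and Obp19a on none. In the run of Obp99b, Obp99c and Obp99d, only Obp99c was so on all arrays.

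**Figure D1:**
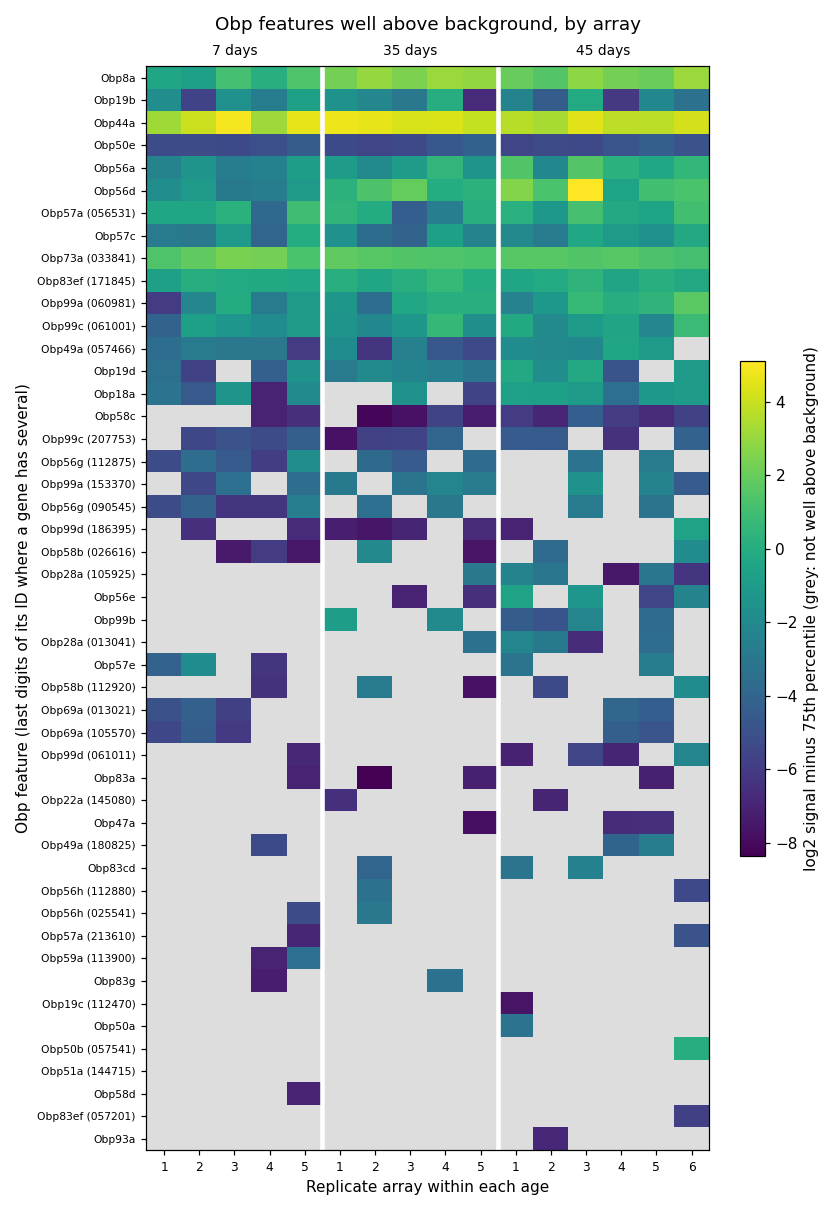
Signal of the 48 OBP features that were well above background on at least 1 array (rows), on the 16 arrays (columns, by age and replicate). Color gives log2 signal minus the 75th percentile, to be compared along a row, and grey marks arrays where the feature was not well above background. The 1 array of Obp51a, and 35-day-old replicate 2 for Obp22a, are grey because the spot was left out as an outlier. The 12 uppermost rows are filled on all arrays, and the others on part of the arrays or, for Obp51a, on none.

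To pass the threshold, a feature had to differ by more than 2-fold with an adjusted p under 0.05 (limma, Benjamini-Hochberg over all 45366 features). For 45 versus 7 days 0 of 70 OBP features passed, and 0.375% of all features did (0.328% with a higher signal at 45 days). For 35 versus 7 days 0 OBP features passed, and 0.097% of all features did (0.022% higher). For 45 versus 35 days 0 OBP features passed, and 0.0154% of all features did. An unadjusted p under 0.05 in limma was reached by 17.1% of OBP features for 45 versus 7 days, 10 of them higher and 2 lower, against 8.46% of all features, with 2.71% higher and 5.75% lower. For 35 versus 7 days it was reached by 34.3% of OBP features, 2 higher and 22 lower, against 27.2% of all features, with 3.22% higher and 23.9% lower. For 45 versus 35 days it was reached by 8.57% of OBP features, 6 higher and 0 lower, against 7.85% of all features, with 6.34% higher and 1.51% lower. In the F test across the 3 ages, 1 of 70 OBP features had an adjusted p under 0.05, against 0.582% of all features, and that feature was Obp8a. An unadjusted p under 0.05 was found for 19 OBP features in the F test, against 20.7% of all features.

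The medians of the changes differed between measured and unmeasured features. For 45 versus 7 days the median log2 change of the 70 OBP features was 0.05, against -0.20 for all features. For the 12 OBP features well above background on all arrays it was 0.81, against -0.05 for all 19753 such features, and 9 of the 12 had a higher mean at 45 days. For the 22 OBP features above background on no array it was -0.18, against -0.28 for all 7276 such features. The median over the 70 OBP features was -0.16 with a floor on dim signals and -0.18 without 45-day-old replicate 6. For 35 versus 7 days the median was -0.46 over OBP features and -0.41 over all features. It was 0.17 over OBP features and 0.02 over all features with quantile normalization, and 0.21 over OBP features and 0.05 over all features with normexp background correction, so that its sign depended on the scaling. It was 0.37 for the 12 measured OBP features and -0.77 for the 22 that were above background on no array.

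Obp8a encodes a Minus-C protein that is known as a component of seminal fluid. All flies used here were female. Its gene lies on the X chromosome, and its single feature (transcript FBtr0071307) was printed in 2 spots. On the 7-day-old arrays the log2 signal was -0.36, -0.70, 1.09, 0.12 and 1.40. On the 35-day-old arrays it was 2.29, 2.99, 2.46, 3.08 and 2.95, and on the 45-day-old arrays 1.96, 1.51, 2.82, 2.31, 2.01 and 3.09. Every array of either older age lay above every 7-day-old array, while the 35-day-old and 45-day-old arrays overlapped. In scanner units the background-adjusted intensity was 3789 to 19807 at 7 days, 52392 to 118460 at 35 days and 30781 to 88592 at 45 days, again without overlap between 7 days and either older age.

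The mean log2 signal of Obp8a was 0.31 ± 0.91 at 7 days (SD, n = 5), 2.75 ± 0.36 at 35 days (SD, n = 5) and 2.28 ± 0.59 at 45 days (SD, n = 6). The 3 ages differed in limma's F test (adjusted p = 0.018). In the pairs, Obp8a was 3.92-fold higher at 45 than at 7 days (log2 change 1.97 ± 0.44 SE), with an adjusted p of 0.14 by limma and p = 0.0043 in an exact two-sided permutation test over arrays. At 35 days it was 5.44-fold higher than at 7 days (2.44 ± 0.42 SE), with an adjusted p of 0.074 by limma and an exact permutation p of 0.0079. Each of these exact values is the smallest that the numbers of arrays allow, and any feature whose arrays do not overlap reaches it. They are not adjusted for the number of features. The rise of Obp8a in these data was known before it was tested, so its F test, separation and p-values are no independent support. The change for 45 versus 35 days was -0.47 ± 0.31 SE (limma, adjusted p = 0.51). Such a separation, with every older array higher, was found for 2 OBP features at 45 versus 7 days, against 0.677% of all features and 1.31% of those measured on all arrays. It was found for the same 2 at 35 versus 7 days, against 1.2% of all features and 2.47% of those measured on all arrays. Lower at 45 than at 7 days without overlap were 0 OBP features, against 0.708% of all and 1.02% of those measured on all arrays. Between 45 and 35 days 0 OBP features were separated, against 0.648% higher and 0.271% lower of all features, and 1.16% higher and 0.557% lower of those measured on all arrays.

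The higher Obp8a signal was seen on both slides. On slide 1 the mean was 2.10 at 45 days (n = 3) and -0.53 at 7 days (n = 2), and on slide 2 it was 2.47 at 45 days (n = 3) and 0.87 at 7 days (n = 3). At 35 days it was 2.58 on slide 1 (n = 3) and 3.02 on slide 2 (n = 2). Within row 2, the 3 45-day-old arrays ran from 1.51 to 3.09 and the 5 7-day-old arrays from -0.70 to 1.40. With the row as a term, the F test had an adjusted p of 0.22, in a model in which 35 and 7 days share no row. It was 0.11 with scaling by the median, and 0.054 to 0.070 without 7-day-old replicate 1, 2 or 4. The summed signal of the 9 male accessory gland markers, relative to the 75th percentile, was 0.018 to 0.042 at 7 days, 0.0085 to 0.40 at 35 days and 0.0099 to 0.11 at 45 days. The ranges overlapped, and the part of such RNA in the Obp8a signal was not tested.

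**Figure D2:**
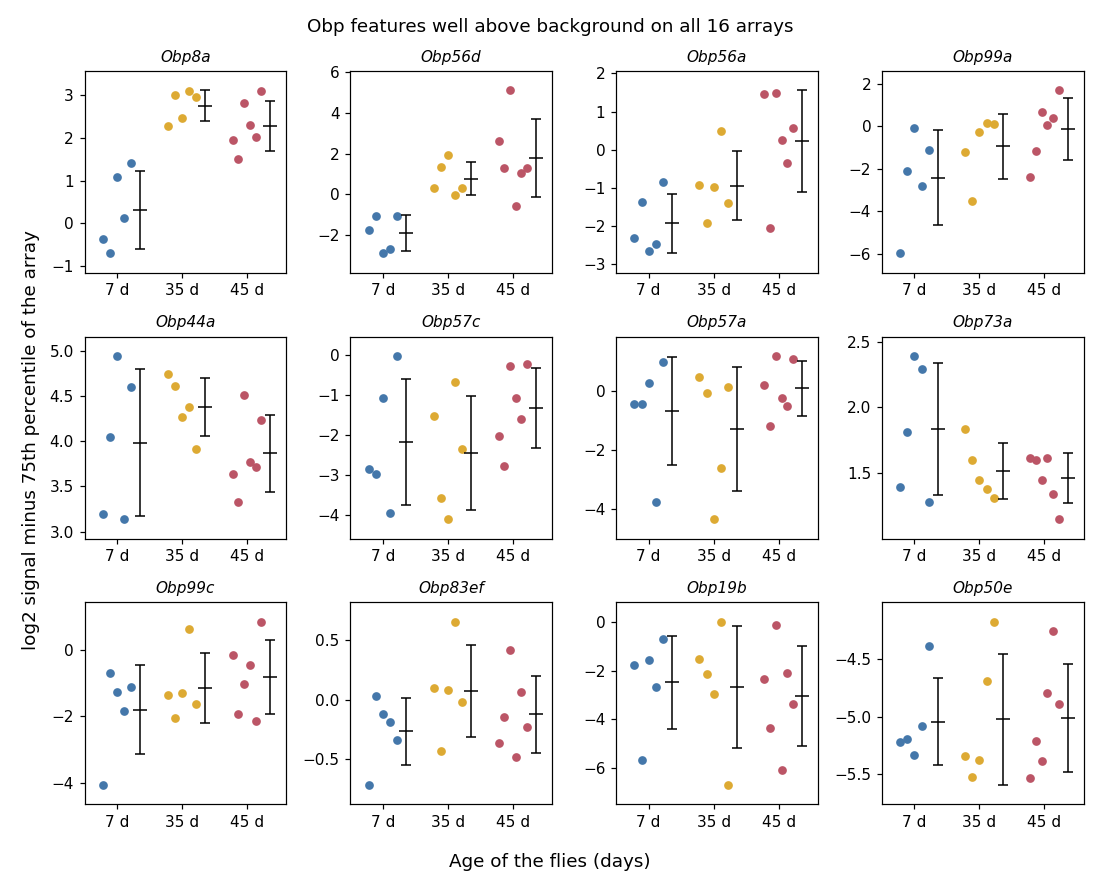
Log2 signal minus the 75th percentile of each array, for the 12 OBP features well above background on all 16 arrays, against age (7, 35 and 45 days, n = 5, 5 and 6). Points are arrays and black bars are the mean ± SD. Obp8a and Obp56d show no overlap between 7 days and the older ages, whereas Obp50e, Obp73a and Obp83ef span less than the other features.

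Obp56d, a classic OBP of antennae and taste organs, was the other member with the same separation. Its signal was -1.76, -1.08, -2.89, -2.70 and -1.06 on the 7-day-old arrays, 0.29, 1.33, 1.92, -0.02 and 0.31 on the 35-day-old arrays and 2.61, 1.28, 5.10, -0.56, 1.04 and 1.31 on the 45-day-old arrays. All older arrays lay above all 7-day-old arrays, and a 45-day-old array, replicate 3, stood highest. The log2 change was 3.69 ± 0.87 SE for 45 versus 7 days (limma, adjusted p = 0.18, exact permutation p = 0.0043) and 2.66 ± 0.51 SE for 35 versus 7 days (limma, adjusted p = 0.081, exact permutation p = 0.0079). For 45 versus 35 days it was 1.03 (limma, adjusted p = 0.60). The exact values of Obp56d follow from the separation by which it was picked, and are not adjusted for the number of features. The F test had an adjusted p of 0.099. Within row 2 the mean was 2.56 at 45 days and -1.90 at 7 days. On slide 1 the means were 3.00 at 45 days and -1.42 at 7 days, and on slide 2 they were 0.60 at 45 days and -2.21 at 7 days.

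Its neighbour Obp56a had a signal of -2.32, -1.38, -2.64, -2.46 and -0.84 at 7 days, -0.93, -1.91, -0.98, 0.50 and -1.39 at 35 days and 1.47, -2.06, 1.48, 0.26, -0.34 and 0.57 at 45 days. At 45 days 5 of 6 arrays lay above all 7-day-old arrays, and replicate 2 lay among them. The change for 45 versus 7 days was 2.16 ± 0.64 SE (limma, adjusted p = 0.34, exact permutation p = 0.017).

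Obp99a, a Minus-C gene, varied widely within each age. Its feature measured on all arrays gave -5.98, -2.11, -0.10, -2.81 and -1.14 at 7 days, -1.22, -3.51, -0.29, 0.14 and 0.11 at 35 days and -2.40, -1.19, 0.66, 0.06, 0.38 and 1.69 at 45 days. The ages overlapped, and the change for 45 versus 7 days was 2.29 ± 1.04 SE (limma, adjusted p = 0.59). A second feature of Obp99a was well above background on 10 arrays, with 3 of 5 at 7 days and 3 of 6 at 45 days, so that its values at these ages were partly at background. For 45 versus 7 days the fitted change of the second feature was -0.06, and 0.17 with dim values set to the detection limit. For 35 versus 7 days the fitted change was 1.47 by the feature measured on all arrays and 1.97 by the second.

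Summed over genes, fat body and muscle markers were brighter in some 45-day-old pools than in every 7-day-old pool. Single markers went both ways. The summed signal of the 8 fat body markers was 8.89 to 36.4 at 7 days, 16.6 to 40.7 at 35 days and 25.0 to 59.5 at 45 days. For 7 muscle markers it was 2.01 to 21.6, 7.02 to 20.2 and 11.8 to 44.8 at these ages. Of 7 sensillum markers the sum was 0.25 to 1.23, 0.064 to 0.88 and 0.15 to 0.77. With the mean over features of a gene, no marker in these lists passed the threshold in any pair of ages. Of all 12947 genes taken in this way, 0 passed for 45 versus 7 days, 13 for 35 versus 7 days and 1 for 45 versus 35 days. At an unadjusted p under 0.05 in limma, 2 fat body and 2 muscle markers were higher for 45 versus 7 days and 0 lower. Of all genes, 314 were higher and 859 lower. For 35 versus 7 days 0 were higher, and 1 fat body and 2 muscle markers were lower, against 378 and 2730 of all genes. Among the muscle genes, Mlc2 and wupA changed by 1.51 and 1.84 for 45 versus 7 days, and TpnC4 and fln by -2.15 and -2.12. The part of fat body, muscle and sensillum cells in the values of Obp56d, Obp56a and Obp99a was not tested.

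Other measured OBPs had means close together. Obp44a, known from glia of the fly brain, was above the 75th percentile on all 16 arrays. It had a signal of 3.19, 4.04, 4.94, 3.14 and 4.60 at 7 days, 4.74, 4.61, 4.27, 4.37 and 3.91 at 35 days and 3.64, 3.33, 4.51, 3.77, 3.71 and 4.23 at 45 days. The ages overlapped, and the change was -0.12 ± 0.38 SE for 45 versus 7 days and 0.40 ± 0.39 SE for 35 versus 7 days. Over the same arrays the summed signal of the 8 glial markers was 40.5 to 74.7 at 7 days, 41.9 to 68.0 at 35 days and 31.1 to 54.8 at 45 days.

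Obp73a, a classic gene of little-known function, was also above the 75th percentile on every array, with 1.39, 1.81, 2.39, 2.29 and 1.28 at 7 days, 1.84, 1.60, 1.45, 1.38 and 1.31 at 35 days and 1.61, 1.60, 1.45, 1.62, 1.34 and 1.15 at 45 days. Its change was -0.37 ± 0.24 SE for 45 versus 7 days. Obp83ef spanned 1.38 on the log2 scale over all 16 arrays, with -0.72, 0.03, -0.12, -0.19 and -0.34 at 7 days, 0.10, -0.43, 0.08, 0.66 and -0.02 at 35 days and -0.37, -0.15, 0.42, -0.48, 0.06 and -0.23 at 45 days. The change for 45 versus 7 days was 0.14 ± 0.22 SE. Obp50e, a Plus-C gene, lay between -5.53 and -4.18 on all arrays, with means of -5.04, -5.02 and -5.01 at the ages of 7, 35 and 45 days. Its change for 45 versus 7 days was 0.03 ± 0.27 SE. By their features measured on all arrays, none of these genes separated any pair of ages. A second feature of Obp83ef, well above background on 1 array, was lower at 35 than at 7 days without overlap.

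Obp57a, Obp57c, Obp99c and Obp19b were measured on all arrays but with more spread. Obp57a had -0.45, -0.46, 0.24, -3.75 and 0.96 at 7 days, 0.47, -0.10, -4.33, -2.59 and 0.11 at 35 days and 0.18, -1.19, 1.16, -0.23, -0.52 and 1.05 at 45 days. Obp57c had -2.84, -2.96, -1.08, -3.94 and -0.04 at 7 days, -1.52, -3.58, -4.09, -0.68 and -2.36 at 35 days and -2.03, -2.77, -0.28, -1.07, -1.59 and -0.24 at 45 days. Both genes belong to a run of neighbouring OBPs on chromosome arm 2R. Obp99c had -4.06, -0.71, -1.28, -1.86 and -1.11 at 7 days, -1.36, -2.07, -1.30, 0.63 and -1.64 at 35 days and -0.17, -1.92, -1.02, -0.47, -2.13 and 0.83 at 45 days. Obp19b, which is used in taste, ran from -6.70 to 0.01 over all arrays, and its change was -0.59 ± 1.12 SE for 45 versus 7 days. By the features measured on all arrays, the ages overlapped in all 4 genes, and in limma no adjusted p was below 0.48.

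**Figure D3:**
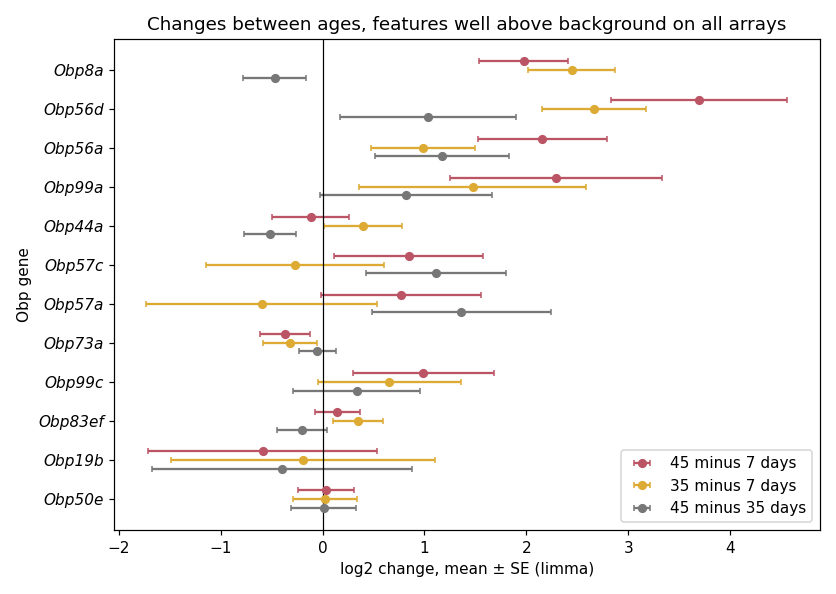
Log2 change between ages for the 12 OBP features well above background on all arrays (limma estimate ± SE). The estimates of Obp8a and Obp56d lie farthest above 0 relative to their SE at 45 minus 7 and 35 minus 7 days, while those of Obp50e lie at 0.01 to 0.03.

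A further set of OBPs was detected on part of the arrays only. Obp56e, a classic gene also found in seminal fluid, was well above background on 0 of 5 arrays at 7 days, 2 of 5 at 35 days and 4 of 6 at 45 days. Its signal at 45 days was -0.59, -7.83, -1.29, -9.29, -5.51 and -2.33, so that these arrays lay far apart, while all 7-day-old arrays lay between -9.85 and -9.10. The mean at 45 days was at least 8.29-fold higher than at 7 days, where the detection limit of each array was taken in place of the dim signal (limma, adjusted p = 0.35). That bound was 4.84-fold without 45-day-old replicate 1 and 5.34-fold without replicate 3, and 13.2-fold and 16.2-fold without replicates 2 and 4.

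Obp28a, an abundant OBP of the antenna, was detected by its first feature on 0 of 5 arrays at 7 days, 1 of 5 at 35 days and 5 of 6 at 45 days. The 45-day-old values were -2.30, -3.07, -8.33, -7.48, -3.09 and -6.29, at least 5.39-fold higher in the mean than at 7 days (limma, adjusted p = 0.42). This bound was 8.44-fold without 45-day-old replicate 3. The second feature of the gene gave at least 3.56-fold (limma, adjusted p = 0.49), and 2.18-fold, 6.47-fold and 5.56-fold without replicates 1, 4 and 6 of that age. Obp99b, a Minus-C gene known for sex-biased expression in the fat body, was detected on 0 of 5, 2 of 5 and 4 of 6 arrays at 7, 35 and 45 days. Its 45-day-old values were -4.38, -4.84, -2.24, -8.01, -3.63 and -9.27, with a mean at least 4.38-fold higher than at 7 days (limma, adjusted p = 0.35). Without 45-day-old replicate 3 this bound was 2.83-fold, and without replicate 6 it was 7.49-fold. The 35-day-old values ran from -10.59 to -0.86. None of these genes passed the threshold.

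Obp18a and Obp58c were detected on all 6 arrays at 45 days. Obp18a had -0.66, -0.77, -1.01, -3.45, -1.19 and -0.98 at 45 days, against -8.54, -9.53, -1.50, -9.55 and -5.66 at 35 days, where 2 of 5 arrays were well above background. At 7 days it was detected on 5 of 5 arrays, between -6.98 and -1.40. The fitted change was 5.61 for 45 versus 35 days (limma, unadjusted p = 0.0018, adjusted p = 0.46), 5.09 with the 2 values below the detection limit set to it, and 3.64 with normexp background correction. It was 2.28 for 45 versus 7 days (limma, adjusted p = 0.55). Obp58c, a Plus-C gene, lay between -6.88 and -4.32 at 45 days and between -8.41 and -6.48 at 7 days, where 2 of 5 arrays were well above background. Its change for 45 versus 7 days was 1.51 ± 0.48 SE (limma, adjusted p = 0.39), and 1.24 with dim values set to the detection limit. Over the alternatives other than left-out arrays it ran from 0.71 to 2.28. One of 3 features of Obp99d, a Minus-C gene, was detected on 1 of 5 arrays at 7 days, 0 of 5 at 35 days and 4 of 6 at 45 days, another on 2, 4 and 2 arrays, and the third on none.

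Obp57e and Obp69a were detected on some 7-day-old and some 45-day-old arrays and on no 35-day-old array. Obp57e, which shapes taste responses to host plant acids, had -4.11, -1.82, -8.20, -6.25 and -8.56 at 7 days, with 3 of 5 arrays well above background. At 35 days it lay between -10.45 and -9.23, on no array well above background. At 45 days it was -3.18, -7.15, -9.48, -9.98, -2.71 and -8.05, with 2 of 6 arrays well above background. All 35-day-old arrays were below all 7-day-old arrays, and the 35-day-old mean was at least 5.87-fold lower (limma, adjusted p = 0.092). This bound was 2.95-fold without 7-day-old replicate 2, 8.91-fold without replicate 3 and 9.48-fold without replicate 5. Obp69a, linked to pheromone responses, was detected by both of its features on 3 of 5 arrays at 7 days, 0 of 5 at 35 days and 2 of 6 at 45 days. The 35-day-old mean was at least 3.42-fold lower than at 7 days by one feature and at least 3.34-fold lower by the other (limma, adjusted p = 0.092 for both). Over the alternatives other than left-out arrays, the fitted log2 change ran from -5.86 to -0.93 and from -5.65 to -0.96. Without 7-day-old replicate 2 the bounds were 2.28-fold for both features, and without replicate 5 they were 5.71-fold and 5.54-fold. One 7-day-old array, replicate 5, lay within or next to the 35-day-old range. Obp59a, known from humidity sensing, was detected by one feature on 2 of 5 arrays at 7 days and on none later. The 35-day-old arrays, between -10.84 and -9.44, did not overlap the 7-day-old arrays, with -8.67, -7.23, -9.37, -7.06 and -3.43. The 35-day-old mean was at least 2.28-fold lower by this feature (limma, adjusted p = 0.094), and 1.20-fold without 7-day-old replicate 5, the highest array. The other feature of Obp59a was well above background on no array, and its ages overlapped. Its fitted change was -0.43 for 35 versus 7 days (limma, adjusted p = 0.59).

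For 4 OBP features all 35-day-old arrays lay below all 7-day-old arrays, against 3.21% of all features and 3.12% of those measured on all arrays. They were the feature of Obp57e and 1 feature each of Obp49a, Obp59a and Obp83ef. For Obp49a and Obp83ef this concerned a feature that was well above background on 1 and 0 of the 7-day-old arrays. That of Obp49a had -10.43, -10.52, -10.37, -9.53 and -10.18 at 35 days, against -8.13, -9.22, -9.43, -5.35 and -8.68 at 7 days. Obp49a, which in taste organs mediates the suppression of sweet by bitter compounds, had another feature that was well above background on 15 arrays, with changes of -0.49 for 35 versus 7 days and 1.13 for 45 versus 7 days (limma, adjusted p = 0.80 and 0.75).

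Most OBP features with lower values at 35 days were dim. Of 22 OBP features lower at 35 than at 7 days with an unadjusted p under 0.05, 17 were above background on no 7-day-old array. The median signal of the 22 OBP features above background on no array was -9.50 at 7 days, -10.28 at 35 days and -9.69 at 45 days. That of all 7276 such features on the array was -9.47, -10.27 and -9.74 at these ages, each a median over features of the mean signal of the age. Obp46a and Obp56i are of this kind, with changes of -0.81 and, for both features of Obp56i, -0.96 and -0.92, below the level at which the arrays measure.

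**Figure D4:**
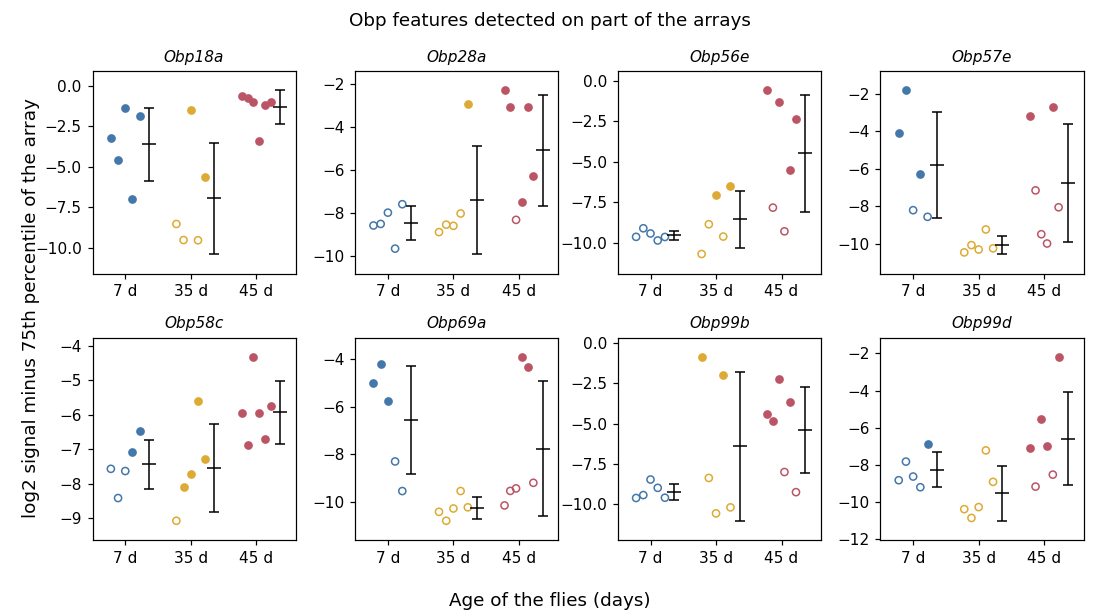
Log2 signal minus the 75th percentile of each array for a single feature of each of 8 OBP genes detected on part of the arrays, against age (7, 35 and 45 days). Filled points are arrays where the feature was well above background, open points arrays where it was not, and bars are the mean ± SD. Obp28a, Obp56e and Obp99b have no filled point at 7 days, and Obp57e, Obp69a and Obp99d have none at 35 days. Another feature of Obp99d, not drawn, was well above background on some 35-day-old arrays.

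Obp56g, a seminal fluid OBP, was well above background on 5 of 5 arrays at 7 days by both features. At 35 days this was so on 3 and 2 of 5 arrays and at 45 days on 2 of 6 arrays for each. By the first feature the signal was -5.21, -3.54, -4.52, -5.89 and -1.77 at 7 days, -10.74, -3.72, -4.49, -9.78 and -3.66 at 35 days and -10.46, -9.85, -3.20, -10.28, -2.81 and -9.45 at 45 days, so that 4 of the 6 oldest pools were near background and 2 were at the level of young pools. The fitted change for 45 versus 7 days was -3.49 ± 1.63 SE (limma, adjusted p = 0.60), and -2.01 with dim values set to the detection limit. By the second feature it was -2.15 ± 1.55 SE (limma, adjusted p = 0.66), and -1.17 with dim values set to that limit. Obp19d, a classic gene, was detected on 4 of 5 arrays at 7 days, 5 of 5 at 35 days and 5 of 6 at 45 days, with values from -9.54 to -0.22.

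Several members were bright in 1 or a few pools. Obp83cd was well above background on 35-day-old replicate 2 and 45-day-old replicates 1 and 3, at -3.94, -3.16 and -2.44, and near background on the others. Obp58b reached -2.85 on 35-day-old replicate 2 and -1.84 on 45-day-old replicate 6 by its first feature, and both features were well above background there. Obp56h, which is linked to courtship, was detected by both features on 35-day-old replicate 2, at -3.32 and -2.96.

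The remaining members were detected rarely. Obp22a and Obp47a were well above background on 3 arrays, Obp83g on 2, and Obp19c, Obp50a, Obp50b, Obp51a, Obp58d and Obp93a on 1. For Obp22a and Obp51a, 1 feature lost a 35-day-old array to the outlier filter, so that it was fitted on 4 arrays of that age. By 1 of 2 features Obp50b reached 0.06 on 45-day-old replicate 6, while the other arrays lay between -10.89 and -8.24.

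Where a gene had several features, they were detected on unequal numbers of arrays in 15 of 20 genes. Obp73a and Obp99c each had a feature well above background on all arrays and another on none. The fitted changes of a gene's features, dim ones included, differed in sign in 9 of the 20 genes for 45 versus 7 days, in 6 for 35 versus 7 days and in 4 for 45 versus 35 days. Averaged over its features, no OBP gene passed the threshold in any pair of ages or in the F test, in which Obp8a had an adjusted p of 0.053 over all genes. Of all 12947 genes, 0 passed for 45 versus 7 days and 13 for 35 versus 7 days. For 45 versus 35 days 1 passed, and 9 did in the F test.

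Of 14 other genes of chemosensory sensilla, 3 were well above background on all 16 arrays and 2, lush and a10, on no array. With the mean over features, 0 of the 14 passed the threshold for 45 versus 7 days, as did 0 of all 12947 genes. At an unadjusted p under 0.05 in limma, 1 of the 14 was higher and 2 lower, against 314 higher and 859 lower of all genes. For 35 versus 7 days 0 were higher and 6 lower at that level, against 378 higher and 2730 lower of all genes.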

How the data were processed

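Gene expression was measured in 16 pools on single-color arrays. For each array the authors deposited the scanner output of Agilent Feature Extraction 11.5.1.1, with background-adjusted intensity per spot and no normalization between arrays. The authors also deposited a table of log2 values, scaled to the 75th percentile and centered per feature. The files name genome build dm3 and no coordinates are given.

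Control and outlier spots were left out, log2 intensity was taken, spots of a feature were averaged and the 75th percentile of each array's features was subtracted. These values lay within a median of 0.0011 to 0.0053 of the deposited log2 table per array. Features were named through accessions in RefSeq, which gave 33255 features a symbol. No filter on dim features was applied. For each pair of ages limma (version 3.58.1, under R 4.3.3) was fitted to the arrays of that pair, the 3 ages were compared with its F test, and single features with exact two-sided permutation tests (scipy 1.17.1). P-values from limma were adjusted over all features. For a group in which a feature was above background on no array, the fold is a bound against the higher of the dim signal and the lowest signal well above background on each array. The test was tried on simulated arrays.

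Per-array values are given for genes past the threshold, for the 10 with the lowest p among those measured on all arrays, and for genes whose ages do not overlap. Values of other members were chosen after they were seen. The members and lists were chosen with earlier results of these data known. Alternatives were other normalizations, normexp (on median spot signals in place of the mean signals first planned), floors and filters, variance models, slide, row and replicate as terms, gene summaries, the methods' t-test and each array left out. Single slides, and bounds and dim values under left-out arrays or a floor, were added after seeing the data. The number of arrays limits the precision, and the authors' comparisons were not used.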

Additional observations from a re-analysis of the deposited data

Results flagged for a closer look

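In 36 groups, made of the 12 OBP features measured on every array at 3 ages, 2 arrays stood apart from the others of their age, and chance alone sets about 1 in 20 groups apart in this way. For Obp50e, replicate 5 of the 7-day-old arrays was highest at -4.39, with the nearest array at -5.08. For Obp99c, replicate 4 of the 35-day-old arrays was highest at 0.63, with the nearest array at -1.30.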

How the results depend on the processing

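Among 70 OBP features, 1 passed the threshold for 45 versus 7 days with all 3 ages in one model (Obp8a, 1.97, adjusted p = 0.040), and 0 under the other alternatives, with 0 to 0 when single arrays were left out. For 35 versus 7 days the count was 2 with median scaling, 5 with a floor on dim signals (when 6.62% of all features passed), 2 with features measured on all arrays only, 2 with a variance trend, 1 with the slide as a block, 1 with all ages in one model, 9 with array weights and 2 on slide 1 alone, an alternative chosen after seeing the data. Leaving out single arrays gave 0 to 14. It gave 14 without 35-day-old replicate 4, 2 of them higher at 35 days, when 4974 of all features passed, 328 of them higher. Of the 7-day-old arrays, leaving out replicate 3 gave 1, which was higher, and leaving out replicate 5 gave 2, 1 of them higher. Array weights called 7.16% of all features. Higher at 35 days were 2 of the 5 with a floor, 2 of the 9 with array weights and 0 of the 2 on slide 1. Under the other alternatives named for this pair, all OBP features that passed were higher. For 45 versus 35 days the count was 0 throughout. In the F test it was 2 with features measured on all arrays only, 2 with a variance trend, 0 with the row as a term, 7 with array weights (10.2% of all features) and 0 with gene means, and 0 to 8 when single arrays were left out. The 0 came when replicate 1, 2 or 4 at 7 days was missing and the 8 when replicate 4 at 35 days was, with 8.34% of all features. Median scaling, measured features only, the variance trend, one model and slide 1 alone called 0.406%, 1.48%, 0.192%, 0.624% and 0.443% of all features for 35 versus 7 days, and the slide block 0.0882%. With median scaling the 1 feature was Obp56d. The cause was not tested.

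The Obp8a change for 35 versus 7 days passed the threshold at 2.79 with median scaling, 2.44 with a floor, with measured features only, with a variance trend and with all ages in one model, 2.63 with the slide as a block and 2.50 with array weights. It did not pass in the other 12 of 19 alternatives. With single arrays left out it ran from 2.19 to 2.72, and it did not pass in 7 of 10 such fits (limma, adjusted p up to 0.15). For 45 versus 7 days the Obp8a change passed in 1 of 21 alternatives and in 0 of 11 fits with an array left out. Obp8a, Obp56d and Obp56a kept their direction for the older ages against 7 days under the alternatives run for them. The median of the 70 OBP features did not: for 45 versus 7 days it was 0.05, -0.16 with a floor on dim signals and -0.18 with the replicate block or without 45-day-old replicate 6, and for 35 versus 7 days it was -0.46, 0.17 with quantile normalization and 0.21 with normexp. The median of all features for 45 versus 7 days was -0.20, 0.02 with quantile normalization and 0.13 with median scaling. With the replicate block, 0 OBP features passed in each pair and 1 in the F test, and Obp8a changed by 1.81 for 45 versus 7 days (limma, adjusted p = 0.33), 2.44 for 35 versus 7 days and -0.63 for 45 versus 35 days. Deviations of 15 same-numbered pairs correlated between -0.059 and 0.13, so the arrays share only a number. The row could not be fitted for 35 versus 7 days. Of the OBP genes 16 were measured on all arrays by the scanner's weaker flag, and 18 on at least 8 arrays. Dim features give bounds only, and these bounds hold for the main processing. Over the alternatives other than left-out arrays, some fitted log2 changes were smaller than the bounds. For 45 versus 7 days they ran from 2.64 to 6.13 for Obp56e and from 1.95 to 5.72 for Obp99b. For the features of Obp28a they ran from 1.86 to 3.99 and from 1.92 to 5.41. For 35 versus 7 days they ran from -7.30 to -1.67 for Obp57e.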
